A study of Homo sapiens with 6 samples.

Results

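ATF4, ATF5, DDIT3 (the gene of CHOP), ATF3, JDP2, CEBPB, CEBPG and CEBPD encode basic leucine zipper (bZIP) transcription factors of the integrated stress response. These 8 genes were chosen by name, and the gene lists below were written, with earlier results of these data known. Of the 8 genes, 7 had a value in the deposited table of 11048 genes. CEBPD had no row and its level was not analysed here. To follow these factors under inhibition of protein disulfide isomerase, MM1.S cells were treated for 6 h with DMSO as the vehicle, 3 µM CCF642 or 3 µM of its analog CCF642-34, and mRNA was sequenced in 2 libraries per group. All 3 groups come from MM1.S, a cell line derived from human multiple myeloma, and share its genetic background. The labels do not say whether the libraries of a group came from separate cultures, and p-values therefore measure only the spread between these libraries, which may be technical.

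The integrated stress response begins when a kinase such as PERK, which senses misfolded protein in the endoplasmic reticulum (ER), phosphorylates the translation initiation factor eIF2α. Most translation then slows, while the mRNAs of ATF4, ATF5 and CHOP are translated better because short reading frames ahead of the coding region no longer divert the ribosome. ATF4 protein pairs with C/EBP proteins on composite C/EBP-ATF response elements and switches on genes of amino acid supply. CHOP and ATF3 are activated downstream of it, and CHOP is known for driving cell death when ER stress is not resolved. Plasma cells secrete large amounts of immunoglobulin and are sensitive to stress of this kind. Sequencing measures the mRNA of these factors and not their translation or protein.

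The libraries held between 20567313 and 28459677 reads. Values are CPM, in which the reads counted for a gene are divided by the library's total, and every deposited gene reached at least 1.505 CPM in some library. Each change is a log2 fold change on the log2(CPM + 1) scale from limma, fitted on all 11048 genes with Benjamini-Hochberg adjustment. It understates the change of genes with low CPM. For this fit, CPM was also divided by a TMM scaling factor of each library. The factors were 1.054 and 1.053 with DMSO, 0.962 and 0.957 with CCF642 and 0.987 and 0.992 with CCF642-34. CPM values, ratios of mean CPM and statements of overlap are without these factors and can differ from the log2 fold changes. The median log2 fold change over all genes was −0.01 with CCF642, 0.01 with CCF642-34 and 0.01 between the compounds. The 9 plasma cell markers (SDC1, TNFRSF17, PRDM1, IRF4, XBP1, SLAMF7, CD38, MZB1 and JCHAIN) were all listed, at 27.5 to 4321 CPM, and their summed level was 9322 to 9384 CPM with DMSO, 6585 to 6628 CPM with CCF642 and 7382 to 7416 CPM with CCF642-34. Of the B cell, T cell, myeloid and fibroblast markers, 2 were listed, CD3E at 2.09 to 3.19 CPM and COL1A1 at 1.09 to 1.50 CPM with DMSO, 9.00 to 10.5 CPM with CCF642 and 2.74 to 3.53 CPM with CCF642-34. The part of these shifts in the values below was not tested, and in bulk samples fewer cells that express a gene cannot be told apart from less of its RNA per cell.

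With CCF642, 6 of the 7 listed factors rose at an adjusted p under 0.05, against 31.8% of all genes higher and 31.3% lower. All 6 also met a minimum of 2-fold with an unadjusted p under 0.05, a criterion met by 4.50% of all genes upward and 1.99% downward. With CCF642-34, the same 6 factors rose at an adjusted p under 0.05 and by at least 2-fold, and ATF5 fell. Among all genes, 29.7% were higher and 27.9% lower with CCF642-34, and the 2-fold criterion was met by 2.59% upward and 1.29% downward. For the 7 factors, CCF642 gave a median log2 fold change of 2.01 and CCF642-34 one of 1.88. Each is the value of JDP2, the factor of lowest CPM. Its log2 fold change depended on the pseudocount and test, from 1.04 to 3.20 with CCF642 and from 0.95 to 3.02 with CCF642-34. The 2 DMSO libraries are shared by these comparisons. With scaling by library size alone, the median of all genes shifted by −0.12 with CCF642 and −0.09 with CCF642-34, and the share of calls that were higher went from 50.4% to 34.8% and from 51.6% to 38.6%. The calls of the 7 factors against DMSO kept their direction and side of the threshold under it.

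**Figure D1:**
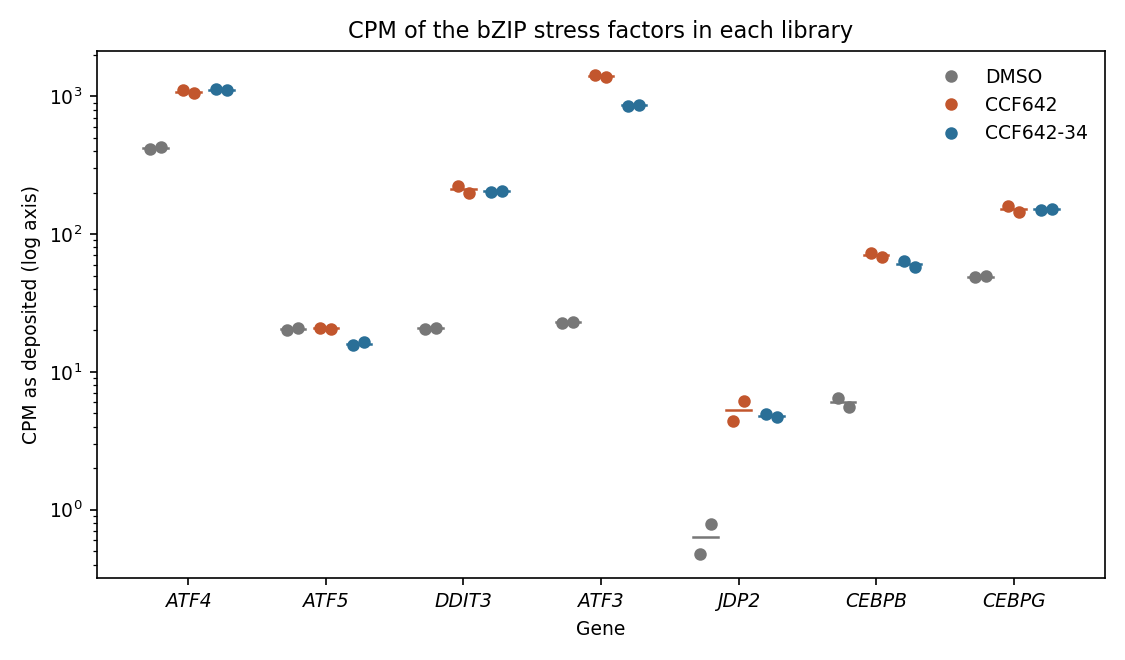
CPM of the 7 listed bZIP stress factors in each of the 6 libraries on a log axis, with points for libraries, colours for groups and a bar at the mean of each group. ATF4, DDIT3, ATF3, JDP2, CEBPB and CEBPG lay higher in all 4 compound libraries than in both DMSO libraries, while the ATF5 values stayed between 15.6 and 20.9 CPM.

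ATF4, the central effector of the response, lies at 39519695 to 39522685 on the plus strand of chromosome 22 (GENCODE 29 on GRCh38). Its mRNA was already abundant with DMSO, at 411 and 428 CPM. It stood at 1101 and 1060 CPM with CCF642 and at 1125 and 1103 CPM with CCF642-34. All 4 compound libraries lay above DMSO. As deposited, the CCF642-34 values began just above those of CCF642, an order that TMM scaling changes. Deposited mean CPM rose 2.57-fold with CCF642 and 2.65-fold with CCF642-34. The fitted log2 fold change was 1.50 with CCF642 (2.82-fold, SE 0.04, limma adjusted p = 2.28e-35) and 1.50 with CCF642-34 (2.82-fold, SE 0.04, limma adjusted p = 3.93e-35). ATF4 has processed pseudogenes of near-identical sequence, so reads could have been divided among these copies, depending on how they were counted.

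ATF5, a relative of ATF4 whose mRNA is also translated better when eIF2α is phosphorylated, was the exception. It lies at 49928702 to 49933935 on the plus strand of chromosome 19. Its values were 20.0 and 20.8 CPM with DMSO, 20.9 and 20.6 CPM with CCF642 and 15.6 and 16.4 CPM with CCF642-34. The DMSO and CCF642 libraries overlapped as deposited, which TMM scaling changes, and both CCF642-34 libraries lay below the other 4. CCF642 gave a log2 fold change of 0.15 (95% interval −0.05 to 0.35, limma adjusted p = 0.179). CCF642-34 gave −0.25 (95% interval −0.45 to −0.05, limma adjusted p = 0.0298), and this call was lost with DESeq2 (adjusted p = 0.0634) and on leaving out either DMSO library or either CCF642-34 library, with an adjusted p of 0.0589 to 0.166. Of the exonic bases of ATF5, 23.7% are shared with IL4I1, NUP62 and MIR4751. NUP62, on the opposite strand, had log2 fold changes of −0.18 and −0.30, and IL4I1 had 0.26 and 0.14. No source used here says that reads were counted by strand, so the reads of these genes cannot be told apart where they overlap.

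DDIT3 encodes CHOP, which lacks activity on many classical C/EBP sites and forms dimers with other C/EBP proteins. The gene lies at 57516588 to 57521737 on the minus strand of chromosome 12. It was at 20.6 and 20.8 CPM with DMSO, at 225 and 199 CPM with CCF642 and at 203 and 205 CPM with CCF642-34. As deposited, both CCF642-34 values fell between the 2 CCF642 values, an order that TMM scaling changes. Deposited mean CPM was 10.2-fold and 9.85-fold that of DMSO. The fitted log2 fold changes were 3.421 and 3.325, with limma adjusted p = 1.3e-42 and 7.14e-42. Among all 11048 genes ordered by log2 fold change, DDIT3 was number 13 from the top with CCF642 and number 9 with CCF642-34. Of its exonic bases, 39.6% overlap MARS, MBD6 and AC022506.1, and MARS, the methionyl-tRNA synthetase gene on the opposite strand, also rose, by a log2 fold change of 1.37 and 1.29.

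ATF3, a stress-induced factor that binds as a homodimer or with JUN proteins and often represses its targets, had the largest log2 fold change of all 11048 genes with each compound on the log2(CPM + 1) scale. It lies at 212565334 to 212620777 on the plus strand of chromosome 1. It moved from 22.8 and 22.9 CPM with DMSO to 1432 and 1380 CPM with CCF642 and to 854 and 859 CPM with CCF642-34. None of the 3 groups overlapped. In mean CPM the rise was 61.5-fold with CCF642 and 37.5-fold with CCF642-34. The ratio for GDF15, a stress cytokine named after its values were seen, was larger but rests on 0 and 1 reads with DMSO, against 49 and 42 in the CCF642 libraries and 98 and 82 in the CCF642-34 libraries. No other gene of the annotation shares exonic bases with ATF3.

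JDP2, a close relative of ATF3 that represses AP-1 sites, had the lowest CPM of the listed factors, also per kb of transcript. It lies at 75427716 to 75474111 on the plus strand of chromosome 14. It had 0.479 and 0.794 CPM with DMSO (11 and 17 reads), 4.38 and 6.15 CPM with CCF642 (90 and 139 reads) and 4.92 and 4.71 CPM with CCF642-34 (140 and 131 reads). Both compound groups lay above DMSO, and the 2 CCF642-34 values fell within the range of CCF642. The ratio of mean CPM to DMSO was 8.27 with CCF642 and 7.57 with CCF642-34. The log2 fold changes were 2.01 (95% interval 1.63 to 2.39, limma adjusted p = 5.67e-13) and 1.88 (95% interval 1.50 to 2.26, limma adjusted p = 6.16e-12), and they depended on the pseudocount, ranging from 1.04 to 3.20 and from 0.95 to 3.02 over the pseudocounts and tests tried.

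CEBPB encodes C/EBPβ, made from its single-exon gene as activating and inhibitory protein forms, and a known dimer partner of ATF4 and CHOP. It lies at 50190734 to 50192689 on the plus strand of chromosome 20, and 11.8% of its exonic bases are shared with CEBPB-AS1. It was low with DMSO, at 6.44 and 5.56 CPM, and reached 73.3 and 67.9 CPM with CCF642 and 63.6 and 58.1 CPM with CCF642-34. The 3 groups did not overlap. Deposited mean CPM rose 11.8-fold and 10.1-fold. The fitted log2 fold changes were 3.48 (SE 0.09, limma adjusted p = 2.57e-35) and 3.22 (SE 0.09, limma adjusted p = 1.16e-33). These were the 12th and 10th largest of all genes.

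CEBPG encodes C/EBPγ, a short C/EBP protein that forms dimers with ATF4. It lies at 33373330 to 33382686 on the plus strand of chromosome 19. It stood at 48.4 and 49.6 CPM with DMSO, at 160 and 145 CPM with CCF642 and at 148 and 153 CPM with CCF642-34. As deposited, both CCF642-34 values fell between the 2 CCF642 values, an order that TMM scaling changes. The compound libraries all lay above DMSO. Deposited mean CPM was 3.11-fold that of DMSO with CCF642 and 3.07-fold with CCF642-34. The fitted log2 fold change was 1.75 with CCF642 (3.36-fold, SE 0.06, limma adjusted p = 5.16e-31) and 1.69 with CCF642-34 (3.22-fold, SE 0.06, limma adjusted p = 3.3e-30).

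**Figure D2:**
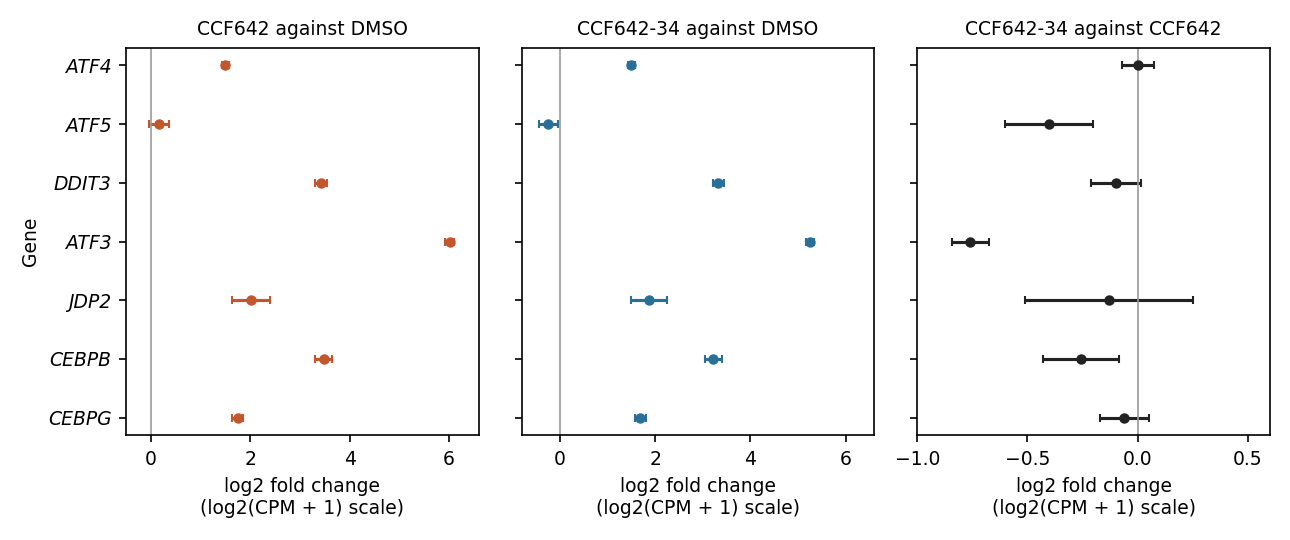
log2 fold change of each listed factor on the log2(CPM + 1) scale with its 95% confidence interval from limma, for CCF642 against DMSO, CCF642-34 against DMSO and CCF642-34 against CCF642. The third panel has a narrower axis, in which the intervals of ATF3, ATF5 and CEBPB lie below 0 and those of ATF4, DDIT3, JDP2 and CEBPG include 0.

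To compare the analogs themselves, CCF642-34 was set against CCF642 at the same dose and time, as a single pair of compounds. At an adjusted p under 0.05, CCF642-34 had lower levels of 3 factors and higher levels of 0, against 17.4% of all genes lower and 15.9% higher. By library size alone, the share of all calls that were higher went from 47.8% to 61.8%. None differed by 2-fold, which 0.299% of all genes did downward. ATF3 was lower with CCF642-34 by a log2 difference of −0.76 (95% interval −0.84 to −0.68, limma adjusted p = 2.74e-20). ATF5 was lower by −0.40 (95% interval −0.60 to −0.20, limma adjusted p = 0.00135). CEBPB was lower by −0.26 (95% interval −0.43 to −0.08, limma adjusted p = 0.0178), a call lost with scaling by library size alone (adjusted p = 0.0509), without the trend of variance with expression (0.096), with a gene-wise linear model (0.217), and without CCF642 replicate 1 (0.126) or CCF642-34 replicate 2 (0.243).

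For the other 4 factors the difference between the compounds did not pass the test. The interval was narrowest for ATF4, with a difference of 0.00 (95% interval −0.07 to 0.08, limma adjusted p = 0.991). It ran from −0.21 to 0.02 for DDIT3 (difference −0.10, limma adjusted p = 0.193) and from −0.17 to 0.05 for CEBPG (−0.06, limma adjusted p = 0.426). DDIT3 passed the test without CCF642 replicate 2 (−0.18, adjusted p = 0.0246). For JDP2 the interval of −0.51 to 0.25 (difference −0.13, limma adjusted p = 0.64) was widest, and it leaves room for a difference in either direction.

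Levels of different genes can be compared only per length, so CPM was divided by the median length of the protein-coding transcripts of each gene. With DMSO, ATF4 held 70.1% and 70.6% of the summed CPM per kb of the 7 factors. It was followed by ATF3 at 29.7 CPM per kb, ATF5 at 24.6, DDIT3 at 22.4, CEBPG at 12.3, CEBPB at 3.07 and JDP2 at 0.374, and no neighbours in this order overlapped. With CCF642, ATF3 stood at 1829 CPM per kb and ATF4 at 566, and ATF4 held 20.7% and 20.8% of the sum. With CCF642-34, ATF3 was at 1114 and ATF4 at 583 CPM per kb, with a share of 29.3% and 28.8% for ATF4.

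Below the leading pair, the order with CCF642 was DDIT3 at 230 CPM per kb, CEBPG at 38.4, CEBPB at 36.1, ATF5 at 25.0 and JDP2 at 3.10, and CEBPG and CEBPB overlapped between libraries. CCF642-34 gave the same order, with DDIT3 at 221 CPM per kb, CEBPG at 37.9, CEBPB at 31.1, ATF5 at 19.3 and JDP2 at 2.83. The rank of ATF3 depended on the length used, since its median coding transcript is 769 bases and its longest is 2033 bases. By the longest transcript, ATF3 was at 11.3 CPM per kb with DMSO, below DDIT3 (19.4) and CEBPG (11.9), at 692 with CCF642, above ATF4 (535), and at 421 with CCF642-34, below ATF4 (552).

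**Figure D3:**
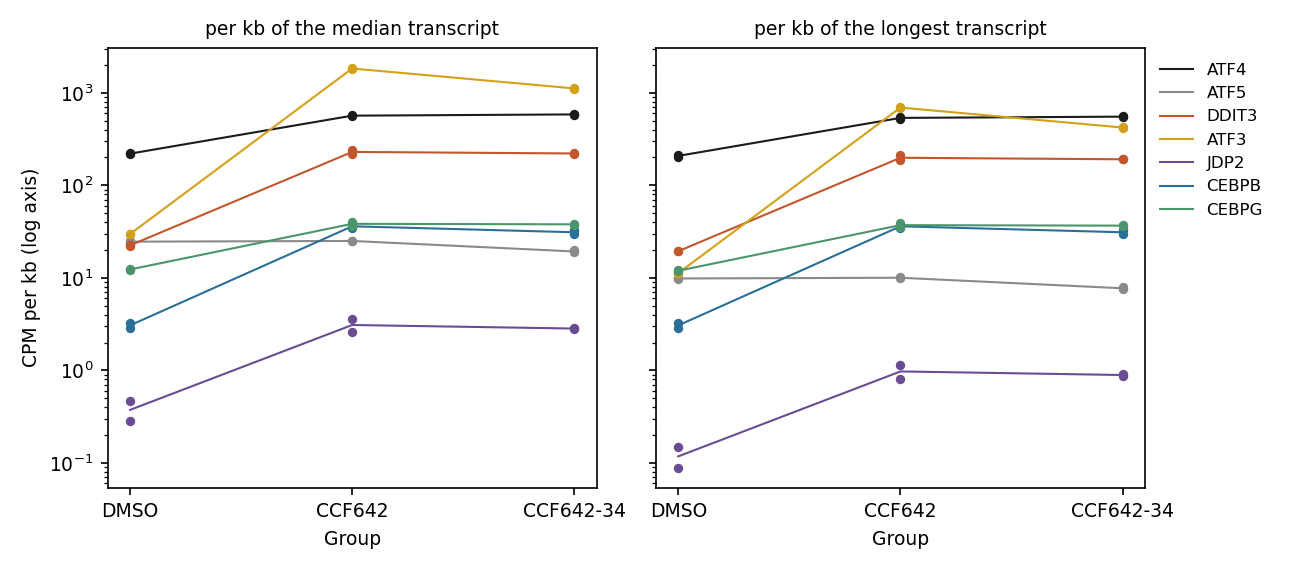
CPM per kb of the 7 listed factors in the DMSO, CCF642 and CCF642-34 libraries on a log axis, by the median (left) and the longest (right) protein-coding transcript, with points for libraries and lines through group means that only join the same gene. ATF4 led with DMSO in both panels, and ATF3 led with CCF642 in both panels, while their order with CCF642-34 differed between the panels.

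The stretch ahead of each RefSeq transcript start was read from promoter windows on GRCh38.p14, which hold 250 bases before each start and matched all 7 listed factors with 16 windows. Both strands were searched for the C/EBP-ATF response element TGATGNAA, the cAMP response element TGACGTCA, the AP-1 site TGACTCA and the C/EBP site TTGCNNAA. These letters do not contain one another. The C/EBP-ATF element occurred in 3 of 16 windows, those of ATF3, JDP2 and CEBPG, against 1.69% of the 13061 windows of listed genes and 3.14% of all 35116 windows. For ATF3 it began 191 bases before the start at 212565407, for JDP2 16 bases before the start at 75428022 and for CEBPG 42 bases before the start at 33374113. The 3 sequences are shown because they carry this element, in capitals, and are cut to the part outside annotated exons, at chr1:212565157-212565333, chr14:75427850-75428021 and chr19:33373896-33374112, all on the plus strand. The stretch of ATF3 lies ahead of the GENCODE gene, while those of JDP2 and CEBPG lie inside the gene spans given above, ahead of an internal start.
ATF3: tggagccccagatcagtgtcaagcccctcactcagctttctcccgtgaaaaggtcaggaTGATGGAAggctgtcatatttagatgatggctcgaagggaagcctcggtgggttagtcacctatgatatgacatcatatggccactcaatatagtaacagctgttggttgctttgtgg
JDP2: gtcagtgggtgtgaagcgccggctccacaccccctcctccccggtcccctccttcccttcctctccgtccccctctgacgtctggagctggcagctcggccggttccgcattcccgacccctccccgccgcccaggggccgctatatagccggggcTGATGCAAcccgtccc
CEBPG: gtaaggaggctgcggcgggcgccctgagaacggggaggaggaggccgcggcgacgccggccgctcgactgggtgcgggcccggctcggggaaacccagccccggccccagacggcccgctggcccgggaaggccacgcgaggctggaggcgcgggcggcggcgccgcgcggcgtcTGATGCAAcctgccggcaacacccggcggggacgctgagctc

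A pair of ATF4 targets was added as a reference after the scan because they hold the same element. ASNS, asparagine synthetase, is shown for 30 bases at chr7:97872458-97872487 on the minus strand, and CHAC1, a glutathione-degrading enzyme, for 30 bases at chr15:40953251-40953280 on the plus strand. Capitals mark the element, which in CHAC1 is on the opposite strand.
ASNS: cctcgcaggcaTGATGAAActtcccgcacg
CHAC1: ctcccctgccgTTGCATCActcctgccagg

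The AP-1 letters occurred in 3 of 16 windows, 1 of ATF5 and 2 of DDIT3 that share the same site, against 2.82% of the windows of listed genes and 4.20% of all windows. The C/EBP letters occurred in 1 window, of ATF5, against 6.49% and 9.05%. The cAMP response element occurred in 0 of 16 windows, against 2.48% and 1.65%. The windows of CEBPB and of ATF4 held none of the 4 motifs, and both mRNAs rose with each compound. The CEBPB upstream bases at chr20:50190333-50190582 on the plus strand are shown for contrast, in lower case throughout.
CEBPB: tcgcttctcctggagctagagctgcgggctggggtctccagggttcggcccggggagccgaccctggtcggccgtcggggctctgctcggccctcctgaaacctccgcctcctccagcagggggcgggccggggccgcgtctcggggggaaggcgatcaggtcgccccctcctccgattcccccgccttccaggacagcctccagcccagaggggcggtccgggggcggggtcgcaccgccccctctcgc
A match is only a match of letters, and its absence says only that these letters are not in this window.

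Known targets of ATF4 and CHOP were examined next. Of 51 genes in a list written from general knowledge, but with earlier results of these data known, 48 were listed. The counts therefore describe the list and do not test it. At an adjusted p under 0.05, 46 were higher and 2 lower with each compound, beside 31.8% (CCF642) and 29.7% (CCF642-34) of all genes higher. At least 2-fold rises were seen for 35 genes with CCF642 and 34 with CCF642-34, beside 4.50% and 2.59% of all genes. The list's median log2 fold changes were 1.55 and 1.56. STC2, NUPR1 and FGF21 had no row.

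Among the 11 amino acid synthesis genes, 10 rose with each compound, with medians of 1.61 (CCF642) and 1.59 (CCF642-34) on the log2 scale. CTH, which makes cysteine, rose by 3.12 and 2.74, and PSAT1 of serine synthesis by 2.45 and 2.59. ASNS rose by 1.62 and 1.58. The exception was ALDH18A1, which starts proline synthesis. It was at 103 and 109 CPM with DMSO, 65.4 and 68.2 CPM with CCF642 and 58.0 and 58.2 CPM with CCF642-34, and fell with both compounds (log2 fold changes −0.52 and −0.77, limma adjusted p = 1.19e-10 and 1.37e-15).

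All 8 amino acid transporter genes rose with each compound, with a median of 2.02 and 1.77. The largest rise was that of SLC7A11, the cystine carrier, at 3.38 and 3.08, followed by SLC6A9, a glycine carrier, at 2.62 and 2.73. All 13 genes of tRNA charging and export rose as well, by less (medians 1.06 and 1.08), from 0.32 for LARS to 1.78 for GARS with CCF642.

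The 10 listed genes of stress and feedback all rose with each compound, with medians of 1.70 and 1.98. SESN2, a stress sensor that restrains mTORC1, was at 23.5 and 24.7 CPM with DMSO, 493 and 500 CPM with CCF642 and 442 and 435 CPM with CCF642-34. CHAC1 went from 4.18 and 6.78 CPM to 123 and 120 CPM and to 100 and 97.7 CPM. TRIB3, a pseudokinase that binds ATF4 and CHOP and dampens them, went from 28.5 and 25.3 CPM to 473 and 462 CPM and to 533 and 518 CPM. TRIB3 was higher in CCF642-34 than in CCF642 libraries (difference 0.13, limma adjusted p = 0.0391, but 0.0531 with DESeq2's size factors), whereas SESN2 (−0.22, limma adjusted p = 0.000164) and CHAC1 (−0.34, limma adjusted p = 0.00398) were lower.

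Of the 6 genes of cell death and oxidation, 5 rose with each compound. PMAIP1 (NOXA) rose by 2.68 and 1.95 on the log2 scale, BBC3 (PUMA) by 2.62 and 2.56, TNFRSF10B (the death receptor DR5) by 1.83 and 1.87 and BCL2L11 (BIM) by 0.88 and 0.23. Between the compounds, PMAIP1 and BCL2L11 were lower in CCF642-34, by −0.72 and −0.65, while the difference was −0.06 for BBC3 and 0.04 for TNFRSF10B, which did not pass the test. ERO1A, an ER oxidase described as a CHOP target, did the opposite of the list. It was at 99.0 and 110 CPM with DMSO, 62.0 and 73.5 CPM with CCF642 and 80.3 and 87.1 CPM with CCF642-34, and fell with both compounds (−0.49 and −0.22, limma adjusted p = 8.12e-09 and 0.00284). Against CCF642, CCF642-34 had 7 of the 48 listed targets higher and 16 lower, with a median difference of −0.03, beside 15.9% of all genes higher and 17.4% lower. The 23 calls became 14 without CCF642-34 replicate 2 and 4 with a gene-wise linear model.

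**Figure D4:**
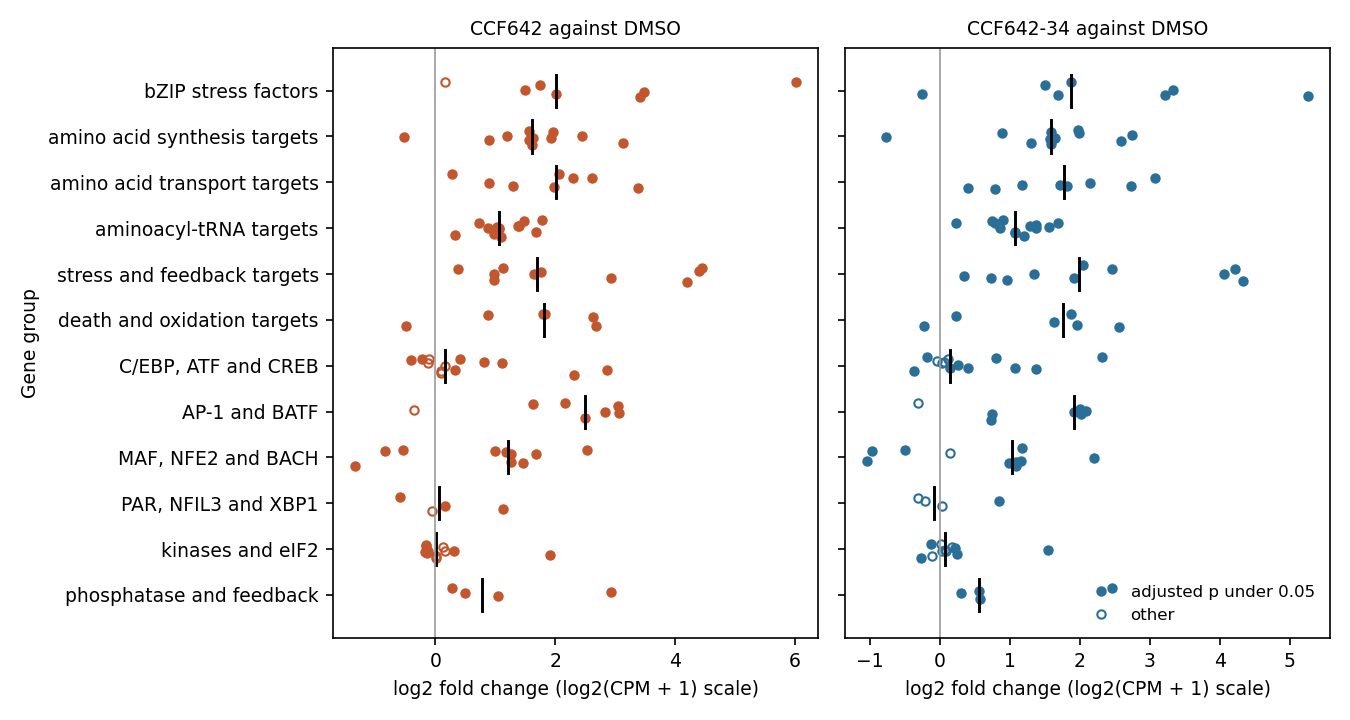
log2 fold change on the log2(CPM + 1) scale of every listed gene in the gene groups drawn, with CCF642 (left) and CCF642-34 (right) against DMSO. The group of genes whose proteins degrade or hold back the factors is not drawn. Filled points have a limma adjusted p under 0.05, open points do not, and black bars mark medians. The amino acid, tRNA and stress targets lie right of 0 except for ALDH18A1, and the kinases and eIF2 genes lie near 0 except for EIF2AK3.

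Upstream of the factors, a list of the eIF2α pathway held the kinases, eIF2α, its exchange factor eIF2B, the mitochondrial protease OMA1, and the phosphatase subunits and other genes of feedback. Of 15 listed genes, CCF642 raised 6 and lowered 3, beside 31.8% and 31.3% of all genes, and CCF642-34 raised 7 and lowered 2, beside 29.7% and 27.9%. These counts are near the background and are no result about the list, whose medians were 0.13 and 0.18. EIF2AK3, the gene of PERK, was at 149 and 149 CPM with DMSO, 519 and 511 CPM with CCF642 and 402 and 417 CPM with CCF642-34. The other kinase genes differed little from DMSO, with log2 fold changes of −0.17 and 0.02 for EIF2AK1 (HRI), −0.17 and −0.26 for EIF2AK2 (PKR) and 0.31 and 0.10 for EIF2AK4 (GCN2). Small as they were, some passed the test. These were EIF2AK1 and EIF2AK4 with CCF642 (limma adjusted p = 0.000945 and 1.92e-06) and EIF2AK2 with both compounds (limma adjusted p = 0.0431 and 0.00178). EIF2S1, which encodes eIF2α itself, stood at 0.00 and 0.08, and neither passed the test, although by library size alone it fell with CCF642 (−0.13, limma adjusted p = 0.0404).

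Both phosphatase subunit genes rose. PPP1R15A (GADD34), the stress-induced subunit that directs dephosphorylation of eIF2α, was at 143 and 145 CPM with DMSO, 1062 and 957 CPM with CCF642 and 767 and 737 CPM with CCF642-34. Its constitutive counterpart PPP1R15B (CReP) rose less, by 1.04 and 0.56 on the log2 scale. EIF2AK3, PPP1R15A and PPP1R15B were each lower in CCF642-34 than in CCF642 libraries, by −0.37, −0.47 and −0.49, with limma adjusted p = 3.73e-10, 7.96e-13 and 1.45e-14.

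Genes whose proteins are known to degrade or hold back these factors were listed for 7 of 9 names, and 4 rose and 1 fell with each compound, beside 31.8% of all genes higher and 31.3% lower with CCF642 and 29.7% and 27.9% with CCF642-34. So few genes give no result about the list. TRIB1, an adaptor that directs C/EBP proteins to the ubiquitin ligase COP1, was at 66.6 and 67.7 CPM with DMSO, 172 and 190 CPM with CCF642 and 94.3 and 99.1 CPM with CCF642-34, without overlap between groups. TRIB2, its relative with the same role, was at 24.9 and 24.5 CPM with DMSO, 11.7 and 13.2 CPM with CCF642 and 11.8 and 13.9 CPM with CCF642-34. The 3 Tribbles genes thus differed in direction, with TRIB3 and TRIB1 higher and TRIB2 lower than DMSO with both compounds. FBXW11 and FBXW7, of other ubiquitin ligases, rose by 0.28 and 0.24 and by 0.70 and 0.37.

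The stress factors were then set beside the 34 listed of 45 other bZIP genes. Of these 34, 21 rose and 6 fell with CCF642 (median log2 fold change 0.90), and 20 rose and 5 fell with CCF642-34 (0.57). Of all genes, 31.8% rose and 31.3% fell with CCF642, and 29.7% rose and 27.9% fell with CCF642-34. In the AP-1 group, 6 of 7 listed genes rose with each compound, and in the MAF, NFE2 and BACH group 7 of 10 rose with CCF642 and 6 of 10 with CCF642-34. JUN, the main AP-1 subunit and a partner of ATF3, was at 144 and 148 CPM with DMSO, 1105 and 1102 CPM with CCF642 and 569 and 539 CPM with CCF642-34. FOSL2, which forms dimers with JUN proteins, was at 32.8 and 34.5 CPM, 269 and 260 CPM, and 126 and 118 CPM. The 3 groups did not overlap for either gene.

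All 6 AP-1 genes that rose were lower in CCF642-34 than in CCF642 libraries (adjusted p under 0.05). The log2 difference was −1.04 for JUN, −1.16 for FOSL2, −1.41 for JUNB, −0.48 for JUND, −0.74 for FOS and −0.91 for FOSB, of which JUNB, JUND, FOS and FOSB are named after their values were seen. Of all 34 genes, CCF642-34 had 15 lower and 2 higher than CCF642. ATF3 and JDP2, stress factors linked above to JUN proteins or AP-1 sites, had differences of −0.76 and −0.13, and that of JDP2 did not pass the test.

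Among the CREB-related genes, CREB5 rose from 1.22 and 1.68 CPM to 15.4 and 15.9 CPM with CCF642 and to 10.8 and 10.5 CPM with CCF642-34. In the MAF group, MAFF, a small MAF protein that pairs with NRF2, rose from 16.0 and 16.8 CPM to 92.4 and 89.0 CPM and to 77.3 and 72.2 CPM. MAF, a large MAF factor known as a driver gene in myeloma, went the other way, from 1379 and 1421 CPM to 509 and 501 CPM and to 647 and 637 CPM. NFE2L3, a relative of NRF2, also fell, from 135 and 132 CPM to 66.3 and 68.0 CPM and to 65.5 and 62.6 CPM. ATF6, the ER-anchored stress factor of another branch, fell slightly, by −0.22 with CCF642 and −0.18 with CCF642-34.

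Finally, the genes whose pattern over the 6 libraries was most like that of each factor were found by the root mean square difference of their log2 values, each taken relative to its own DMSO mean. ATF4 was closest to TFRC, the transferrin receptor (0.04), HSPA13, a chaperone of the ER (0.05), and MTHFD2, a mitochondrial folate enzyme (0.07), among 8923 genes. CEBPG was closest to TES (0.05), FAM84B (0.06) and SRXN1 (0.07). DDIT3 and CEBPB were each other's nearest gene (0.10), and both had SLC7A11 and TSC22D3 among the next. JDP2 was closest to the amino acid carrier gene SLC38A2 (0.14), KLF9 (0.15) and GPT2 (0.16) on the log2(CPM + 1) scale. JDP2 itself lay below the mean log2 CPM of 3 required of the genes compared, and its log2 values depend on the pseudocount. With CCF642-34, the ratio of mean CPM to DMSO was 7.57 for JDP2, against 3.34 for SLC38A2 and 3.74 for GPT2. Its nearest genes under other pseudocounts were not tested. ATF3 stood apart, since its nearest genes, SESN2 (1.09), CHAC1 (1.17) and TRIB3 (1.17), differed from it by over a log2 unit. The distance includes the size of a change, and ATF3 had the largest log2 fold change of all genes with each compound. These distances are a description over 6 libraries of 3 groups, of which the CCF642-34 libraries were the deepest.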

How the data were processed

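Per the labels, MM1.S mRNA was enriched with oligo(dT) beads and made into cDNA with random hexamers, and no marking of strand is described. The submitters' processing notes name STAR, edgeR 3.24.3, limma 3.38.3 and hg19, without a role or order. The counting tool and annotation were not given in the sources used here. The authors deposited CPM values of 11048 genes for 6 libraries. This unit was read from the values, which in all 6 libraries were whole multiples (100% within 0.05 of a read) of the share of 1 read, and listed genes held 99.9% of the reads. Reads recovered in this way, with the library totals, gave the TMM factors and the scaled CPM of the main fit. They also served for the alternatives and are the read counts given above. Counting precision follows the totals of 20567313 to 28459677 reads, and without molecular identifiers a read need not stand for a separate molecule. A second table of the whole series was not used.

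CPM was scaled by TMM (edgeR 4.0.16), increased by 1, converted to log2 and fitted with limma 3.58.1 (R 4.3.3, variance trend, 3 groups together, no replicate block). Residual degrees of freedom were 3 and the prior added 42.9. Tests were two-sided, with Benjamini-Hochberg adjustment over all genes in each of 3 comparisons. Genes were called at an adjusted p under 0.05, and separately at 2-fold with an unadjusted p under 0.05. The fit was tested on simulated data. The members and lists were chosen with earlier results of these data known. Besides the members, the text names from each list the 2 largest rises and falls with each compound at an adjusted p under 0.05 and, for members with an absolute log2 fold change of at least 1, the 3 genes of most similar pattern among those whose mean log2 CPM was 3 or more. Further list genes are examples chosen after their values were seen. Alternatives were DESeq2 size factors, library size alone, pseudocounts of 0.1, 0.5, 2 and 4, only genes with a mean CPM of 5 or more, edgeR's quasi-likelihood test, DESeq2 1.42.0, limma-voom, a gene-wise linear model, no variance trend, fits of 2 groups, a replicate block and leaving out each library.

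Gene positions, lengths and exon overlaps came from GENCODE 29 on GRCh38, a later build than the hg19 of the notes, and no coordinates of the files were used. Promoters of RefSeq on GRCh38.p14 matched 8871 of the listed genes (80.3%). Protein sequences were not used here.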

Additional observations from a re-analysis of the deposited data

How the results depend on the processing

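The 21 log2 fold changes of the 7 listed factors were recomputed under up to 20 alternatives, and 398 of 417 values kept their direction and their side of the threshold. Of the rest, 10 lost the call (ATF5 with CCF642-34 and CEBPB between the compounds), 2 gained it, ATF5 with CCF642 by the gene-wise linear model (adjusted p = 0.0491) and DDIT3 between the compounds without CCF642 replicate 2, and 7 changed sign, all between the compounds. These were ATF4 (−0.008 with DESeq2's size factors and Wald test, −0.001 with a minimum mean CPM of 5, and −0.022 to 0.024 without single libraries), JDP2 (−0.341 to 0.081 without single libraries) and CEBPG (−0.126 to 0.006), none of which passed the test in any fit. With the minimum mean CPM of 5, JDP2 was removed and has no value.

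Counts of calls between CCF642-34 and CCF642 moved most. With the gene-wise linear model, which shares no variance between genes, they were 4 in place of 23 targets, 8 in place of 17 other bZIP genes, 3 in place of 6 genes of the eIF2α pathway, 1 in place of 3 regulators and 739 in place of 3685 of all genes. Without the variance trend they were 11 targets and 2029 of all genes. Against DMSO, the gene-wise model gave 5 in place of 9 genes of the eIF2α pathway and 4108 in place of 6362 of all genes with CCF642-34. Without single libraries, the targets called between the compounds ranged from 14, without CCF642-34 replicate 2, to 25, and the eIF2α pathway genes called with CCF642-34 from 5, without DMSO replicate 1, to 9. The lone library of a group was then assumed to vary like the other groups.

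The labels give the replicate numbers no shared culture or day, and same-numbered libraries did not deviate together (correlations of −0.009, −0.056 and 0.047 across genes). With the replicate number as a block, 6 and 7 of the 7 factors were called with CCF642 and CCF642-34 and 3 between the compounds, as without it. CEBPD and other genes without a row lie outside what these data can show. With 2 libraries per group, the test leans on variance shared across genes, and JDP2 rests on 11 and 17 reads with DMSO.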
